A study of Mus musculus with 6 samples.

Results

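The glutathione, glucuronide and sulfate conjugation genes are the genes of 3 enzyme classes that attach a water-soluble group to drugs, dietary compounds, steroids and bile acids. They were chosen by symbol, as the glutathione S-transferases (Gsta, Gstk, Gstm, Gsto, Gstp, Gstt, Gstz and Mgst), UDP-glucuronosyltransferases (Ugt1a, Ugt2a and Ugt2b) and cytosolic sulfotransferases (Sult) that have a probe set annotated to 1 gene only. No Ugt1a gene has one, nor have Gsta1 and Gsta2, so these are described apart. This gave 46 of the 19938 genes measured, 22 of them glutathione S-transferases, 8 UDP-glucuronosyltransferases and 16 sulfotransferases. Small intestinal epithelium was isolated from mouse embryos at E18.5, and total RNA was hybridised to 6 Affymetrix Mouse Gene 1.0 arrays. The mutants were Gata4Gata6 double conditional knockouts (cKO, 3 arrays), in which both GATA factor genes are deleted by design, and they were set against controls (3 arrays). Which exons were deleted, what drives the cre and what alleles the controls carry was not given in the sources used here. No label states that each array is a different embryo. The p-values therefore measure only the spread between these 6 arrays, part of which may be technical.

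Conjugation is the second phase of the handling of foreign compounds. Glutathione S-transferases join the tripeptide glutathione to electrophiles, UDP-glucuronosyltransferases of the endoplasmic reticulum transfer glucuronic acid from UDP-glucuronic acid, and sulfotransferases transfer sulfate from the donor PAPS. The products leave the cell through export pumps, and the absorptive cells of the small intestine are, beside hepatocytes, a main site of all 3 reactions. GATA4 and GATA6 are zinc finger factors that bind the core sequence GATA in gut epithelium.

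Sult6b2 and Ugt2a3 fell to low levels in cKO epithelium, 5 of the 7 mu class glutathione S-transferases fell, and Gsta4, Ugt2b36 and Sult2b1 were higher. Of the 46 genes, 4 rose, 12 fell and 30 did not pass the test (limma across all genes, Benjamini-Hochberg adjusted p under 0.05). The share called was 34.8%, beside 12.9% of all genes. By direction, 5.52% of all genes were called higher and 7.42% lower. The median change of the 46 genes, cKO minus control, was -0.15 on the log2 scale, against -0.01 over all genes, and their changes ran from -3.93 to 1.61. Of the 16 called, 8 changed at least 2-fold, a size that 3.63% of all genes reached with a call. The count of lower genes was 7 when control array 2 or control array 3 was left out and 14 without cKO array 2. Without cKO array 2 and control array 3 together, 3 were higher and 11 lower, beside 7.95% of all genes called, and 10 of the 16 calls were kept.

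**Figure D1:**
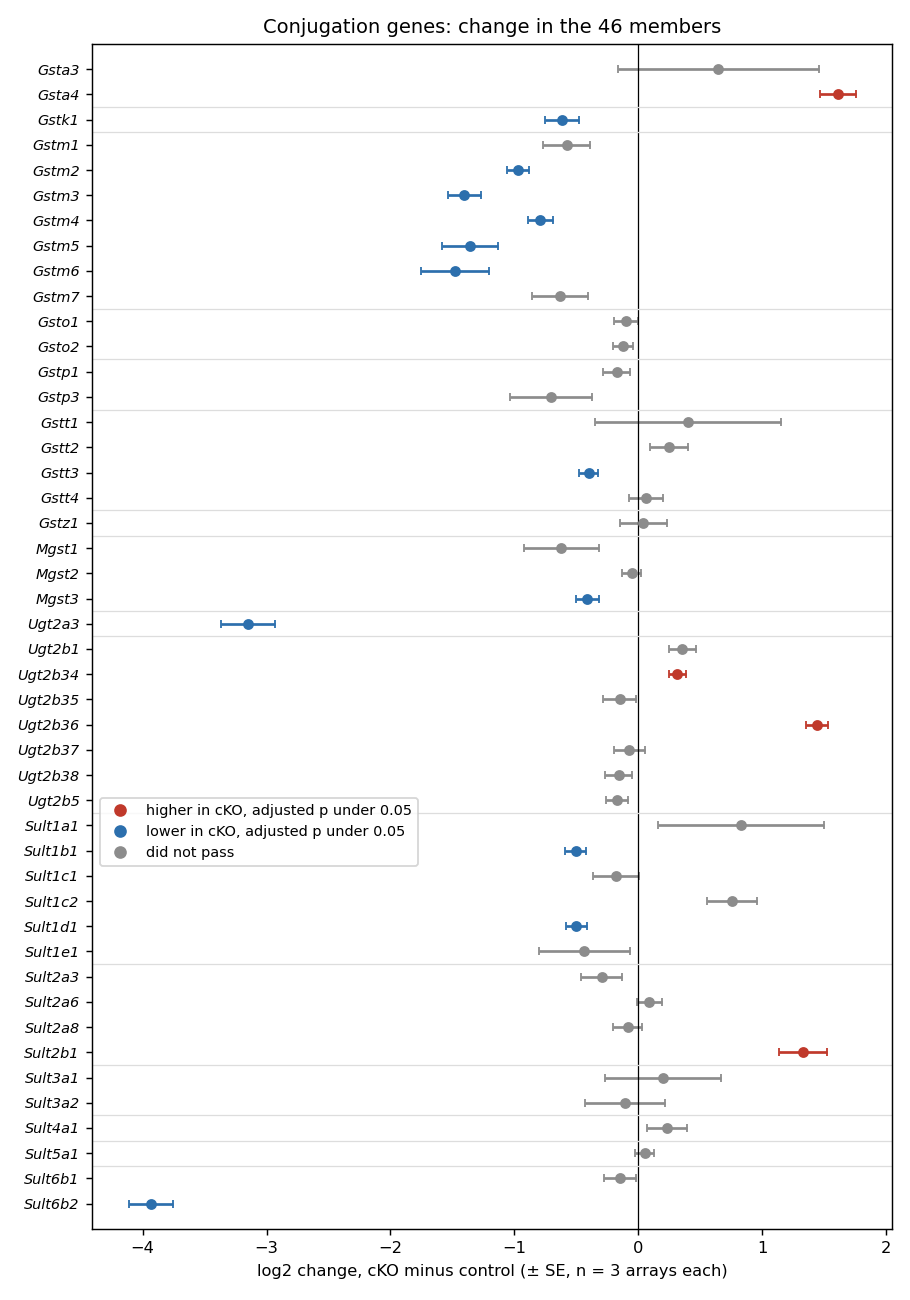
Change of each of the 46 genes, cKO minus control, on the log2 scale (x axis; point, limma estimate; bar, SE; 3 arrays each), by family down the page. Sult6b2 and Ugt2a3 lie at -3.93 and -3.15, all 7 Gstm genes lie left of 0, and Gsta4, at 1.61, is farthest to the right.

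Some values of the arrays bear on what follows. Gata4 had log2 levels of 11.34, 11.39 and 11.51 on the cKO arrays, against 10.95, 10.93 and 10.96 on the control arrays. Gata4 was 0.47 higher and Gata6 0.45 higher in cKO (limma adjusted p = 0.0101 and 0.0067). Both calls were kept with any 1 array left out. The probe sets of the targeted genes were thus higher in cKO and not lower, and every direction here rests on the labels. A probe set that reads outside the deleted exons checks no label. The mean of 12 intestinal epithelial markers was 12.13, 11.94 and 12.16 on the cKO arrays and 12.12, 12.14 and 12.14 on the control arrays, but the list was not unchanged: 3 of the 12 rose and 1 fell. Krt19, a keratin, rose by 0.61, and Fabp2, a fatty acid binding protein of enterocytes, fell by 2.73. Hepatocyte markers differed by array: the mean of 16 was 7.82, 12.48 and 7.86 in cKO and 8.82, 7.40 and 10.41 in control, so cKO array 2 and, to a smaller extent, control array 3 stood apart. Erythroid markers, of which 7 of 14 were measured, averaged 7.08, 10.44 and 7.21 in cKO and 8.61, 7.35 and 8.63 in control. Of 11 mesenchyme markers 8 did not overlap between the groups, against 32.6% of all genes, and Pdgfra, at -0.55, was the only one of them lower in cKO. The list averaged 9.36, 9.20 and 8.43 in cKO and 8.45, 8.02 and 8.22 in control. In limma 0 of the 11 passed, and 8 had an unadjusted p under 0.05, as had 5294 of all 19938 genes. Exocrine pancreas markers, 12 of 15 measured, averaged 9.68, 9.46 and 8.63 in cKO and 9.89, 8.35 and 7.26 in control, and endothelial and immune markers were highest on cKO array 2, at 8.39 and 9.06. Of the 8 immune markers 1 rose and 1 fell. Itgam rose by 1.30 and Csf1r fell by 2.22 (limma adjusted p = 0.034 and 0.0148, and up to 0.117 and 0.0646 on leaving out an array). The mean of 3 Y-linked genes was 8.65 on control array 3 and 5.19 to 5.46 on the other arrays, so that array, without which several calls below were lost, alone had the Y-linked levels of a male. Of these differences, only those in hepatocyte markers were fitted as a covariate, and the part of the others in the results was not tested. In such bulk RNA, fewer cells of a type and less RNA per cell cannot be told apart. Levels are the deposited values, read here as log2, and there are no detection calls. As a rough yardstick of low levels, which different probe sets reach at different values, 1027 olfactory receptor genes had a median mean level of 6.03 and a 95th percentile of 7.55. Of the 46 genes, 33 lay above that percentile.

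The promoters of 6 genes that passed are shown, so that AGATAA or TGATAA, or their absence, can be seen beside the values. They are the 3 genes Sult6b2, Ugt2a3 and Ugt2b36, and 3 of the adjacent Gstm genes, 1 with such letters and 2 without. Each is the 250 bases before the transcription start, 5′ to 3′ on the gene's own strand, from RefSeq for GRCm38.p6, where 43 of the 46 genes matched. Capitals mark AGATAA or TGATAA on either strand. Other letters that hold the core GATA were not searched or marked, such as TATC near the start of the Gstm5 sequence. In Gstm5 they mark TGACNNNGC, the core of the antioxidant response element that NRF2 binds, with an overlapping GCGTG, the core of the xenobiotic response element.
Sult6b2, chr6:142804467-142804716, minus strand: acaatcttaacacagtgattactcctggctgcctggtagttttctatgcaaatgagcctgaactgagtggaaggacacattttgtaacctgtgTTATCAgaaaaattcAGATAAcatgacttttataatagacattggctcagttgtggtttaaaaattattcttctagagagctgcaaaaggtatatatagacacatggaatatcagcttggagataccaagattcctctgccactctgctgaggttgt
Ugt2a3, chr5:87337196-87337445, minus strand: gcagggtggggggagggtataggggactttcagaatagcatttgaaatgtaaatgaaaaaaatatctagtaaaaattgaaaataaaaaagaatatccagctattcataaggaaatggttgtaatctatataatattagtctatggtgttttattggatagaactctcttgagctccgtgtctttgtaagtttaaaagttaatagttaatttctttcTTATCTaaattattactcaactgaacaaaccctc
Ugt2b36, chr5:87092556-87092805, minus strand: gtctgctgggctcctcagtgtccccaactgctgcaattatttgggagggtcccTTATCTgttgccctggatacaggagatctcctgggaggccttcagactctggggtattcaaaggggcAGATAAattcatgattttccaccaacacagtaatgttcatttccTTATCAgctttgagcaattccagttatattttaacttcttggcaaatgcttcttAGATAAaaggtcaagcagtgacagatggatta
Gstm2, chr3:107986421-107986670, minus strand: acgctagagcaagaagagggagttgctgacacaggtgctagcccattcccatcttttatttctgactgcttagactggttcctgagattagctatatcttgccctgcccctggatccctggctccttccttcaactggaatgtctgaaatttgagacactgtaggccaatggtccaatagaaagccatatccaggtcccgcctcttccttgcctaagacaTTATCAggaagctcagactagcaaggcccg
Gstm3, chr3:107969175-107969424, minus strand: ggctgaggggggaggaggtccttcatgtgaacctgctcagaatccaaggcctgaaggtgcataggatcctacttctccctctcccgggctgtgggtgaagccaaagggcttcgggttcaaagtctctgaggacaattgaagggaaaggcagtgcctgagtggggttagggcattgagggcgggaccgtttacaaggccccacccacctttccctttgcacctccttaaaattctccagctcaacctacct
Gstm5, chr3:107895604-107895853, plus strand: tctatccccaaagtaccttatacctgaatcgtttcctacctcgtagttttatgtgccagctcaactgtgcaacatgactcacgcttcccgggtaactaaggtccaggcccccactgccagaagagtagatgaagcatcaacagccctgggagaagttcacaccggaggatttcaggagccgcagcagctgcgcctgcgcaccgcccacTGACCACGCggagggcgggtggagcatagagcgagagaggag

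Windows from 250 bases before to 50 after the start were searched for 5 sets of letters on both strands, over 55 windows of the 46 genes and 32851 windows of all genes. AGATAA or TGATAA occurred in 17 of the 55 windows, 30.9%, against 18.6% of all windows. Among windows of the called genes the share was 6 of 21, and among those of the lower genes 5 of 17. Sult6b2, the largest fall, had 2 matches and Ugt2a3 had 1, but Ugt2b36, which rose, had 4. Gstm2 had 1 match, and Gstm3, which fell more, had none. Nor had Gstm4, Gstm5, Gstm6 and Sult2b1, which also passed. Gsta4, Gstt2 and Sult4a1 were not searched. TGACNNNGC occurred in 4 of the 55 windows, 7.27%, against 12.4% of all windows. GCGTG was in 18.2% of them, against 32.4% of all windows. An HNF1-type motif was in 3 of them, 5.45%, against 0.399%, and in 1 of the 21 windows of called genes. The 3 windows were those of Sult1d1, Sult2a3 and Sult2a6. Of these genes only Sult1d1 passed, and the Sult2a genes lay under the olfactory receptor percentile. A match is a description of letters and not of a bound site, and a gene without one can hold the core GATA in other letters. The windows of the Gstm genes were 48.3% to 53.3% identical in pairs, and those of the Ugt2b genes 50.3% to 87.3%, at most for Ugt2b37 with Ugt2b38. Pairs of a Gstm with a Ugt2b window were 44.9% to 52.4% identical, so the Gstm windows were little more alike than windows of different families.

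The mu class conjugates epoxides and other electrophiles. All 7 Gstm genes had a change below 0, with a median of -0.97, and 5 of them fell, or 4 without any one of cKO array 1, cKO array 3, control array 2 or control array 3. Gstm3 had log2 levels of 10.39, 10.83 and 10.79 on the cKO arrays, against 12, 12.13 and 12.09 on the control arrays. Its groups were well apart. It fell by 1.40 ± 0.13 (SE), a fold of 2.65 (limma adjusted p = 0.00138). A further probe set for Gstm3 read 9.14, 9.1 and 9.78 in cKO and 11.57, 11.7 and 11.72 in control, and there the gene fell by 2.32 ± 0.20 (limma adjusted p over all probe sets = 0.00344).

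Gstm5 read 8.92, 9.73 and 8.95 in cKO and 10.51, 10.47 and 10.7 in control, with cKO array 2 the highest of its group. It fell by 1.36 ± 0.23 (limma adjusted p = 0.0114, and 0.0523 without control array 3). Gstm6 read 6.95, 7.52 and 7.3 in cKO and 8.34, 8.55 and 9.31 in control, so its cKO levels were at or under the olfactory receptor percentile. It fell by 1.48 ± 0.27 (limma adjusted p = 0.0172, and up to 0.0549 without cKO array 1, cKO array 3 or control array 2). The tightest groups of the class were those of Gstm2 and Gstm4. Gstm2 read 9.5, 9.38 and 9.59 in cKO and 10.37, 10.52 and 10.5 in control, and it fell by 0.97 ± 0.087 (limma adjusted p = 0.00119). Gstm4 read 10.07, 10.05 and 10.11 in cKO and 10.68, 10.91 and 11.01 in control, and it fell by 0.79 ± 0.10 (limma adjusted p = 0.00425).

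Gstm1 and Gstm7 did not pass with all arrays. Gstm1 read 10.3, 11.03 and 10.43 in cKO and 11.12, 11.15 and 11.22 in control, so that cKO array 2 lay near the controls and the others below them. Its change was -0.58 ± 0.19 (limma adjusted p = 0.108) and -0.80 without cKO array 2 (limma adjusted p = 0.00374). Gstm7 read 9.97, 10.61 and 9.77 in cKO and 10.55, 10.88 and 10.82 in control, a change of -0.63 ± 0.22 (limma adjusted p = 0.13). Without cKO array 2 it was -0.88 (limma adjusted p = 0.00985). All 7 genes passed without cKO array 2 and control array 3, and also with the hepatocyte marker mean as a covariate.

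These genes lie side by side on chromosome 3. Of the 3 measured genes on each side, only Eps8l3 passed the test, and it fell by 0.67 ± 0.10 (limma adjusted p = 0.00867). It lies on the Gstm5 side and codes for a protein of the actin cytoskeleton. The other 5 flanking genes had changes of -0.28 to 0.31 and did not pass.

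**Figure D2:**
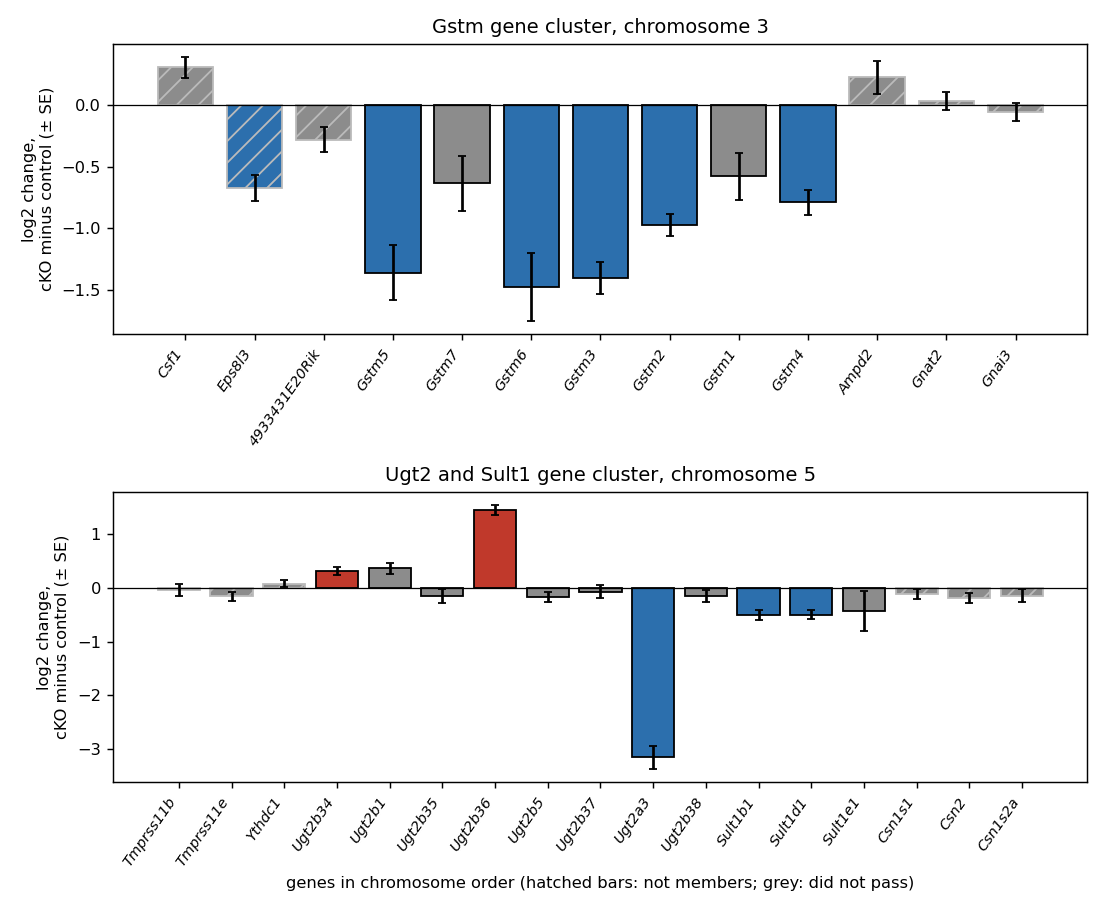
Change of each gene, cKO minus control, on the log2 scale (bars, limma estimate; whiskers, SE; 3 arrays each), in chromosome order for the Gstm cluster (upper panel) and the Ugt2 and Sult1 cluster (lower panel), with 3 flanking genes on either side hatched. The Gstm genes lie between -1.48 and -0.58, whereas the lower panel holds Ugt2b36 at 1.44 near Ugt2a3 at -3.15. Gstm3 is drawn from its probe set with the highest mean, and its other probe set, not drawn, gave -2.32.

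Among the alpha class, Gsta4 rose. It conjugates 4-hydroxynonenal, a product of lipid peroxidation. Its levels were 9.79, 10.13 and 10.32 in cKO, against 8.34, 8.5 and 8.57 in control, with no overlap. The change was 1.61 ± 0.15, a fold of 3.05 (limma adjusted p = 0.00129), and the call was kept with any 1 array left out. Gsta3 read 8.54, 11.29 and 8.32 in cKO and 8.42, 8.32 and 9.47 in control, so the highest value of each group was on the array with the most hepatocyte marker RNA. Its change was 0.65 with a 95% interval of -1.30 to 2.59 (limma adjusted p = 0.677), and -0.31 without cKO array 2.

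Gsta1 and Gsta2, major glutathione S-transferases of intestine and liver, are outside the 46 because their probe sets carry the symbols of 4 near-identical genes. On the 4 such probe sets the values were 7.37 to 9.46 in cKO and 9.78 to 10.82 in control. The cKO levels lay below the controls on each of them. The changes ran from -1.92 to -1.80, and none passed (limma adjusted p over all probe sets = 0.0833 to 0.0923). cKO array 2 was the lowest array there, the reverse of Gsta3.

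The other soluble classes had smaller changes. Gstk1, the kappa class enzyme of mitochondria and peroxisomes, read 9.38, 9.75 and 9.84 in cKO and 10.18, 10.25 and 10.39 in control. It fell by 0.62 ± 0.14 (limma adjusted p = 0.0323, and up to 0.114 without any one of the control arrays). Gstt3, a theta class gene, read 10.32, 10.18 and 10.31 in cKO and 10.6, 10.73 and 10.68 in control, and it fell by 0.40 ± 0.078 (limma adjusted p = 0.0209). The fall was small beside the others, and its adjusted p reached 0.0848 without cKO array 2 or 3 or control array 2 or 3.

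Gstp1, the pi class enzyme typical of epithelia, read 11.94, 12.18 and 12.24 in cKO and 12.21, 12.42 and 12.25 in control, overlapping groups, with a change of -0.17 and a 95% interval of -0.43 to 0.09. Gsto1, an omega class enzyme that also reduces dehydroascorbate, read 11.91, 11.83 and 11.92 in cKO and 11.86, 11.94 and 12.15 in control. The 95% interval of its change was -0.33 to 0.13. Gstz1, which acts in tyrosine breakdown, had a change of 0.04 (limma adjusted p = 0.925), Gsto2 of -0.12, Gstt2 of 0.25 and Gstt4 of 0.06. Gstt1 read 7.86, 10.81 and 8.19 in cKO and 8.33, 8.45 and 8.87 in control, high on cKO array 2 alone. Its change was 0.40, with a 95% interval of -1.40 to 2.21, and -0.53 without that array (limma adjusted p = 0.152). Gstp3 read 9.03, 10.11 and 8.86 in cKO and 9.87, 9.95 and 10.29 in control, again with cKO array 2 above the rest of its group. Its change was -0.70 ± 0.33 (limma adjusted p = 0.241), and -1.09 without cKO array 2 (limma adjusted p = 0.00697).

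Of the membrane-bound enzymes, Mgst3 passed with a small change. It read 10.76, 10.77 and 10.78 in cKO, almost the same value on each array, and 11.02, 11.27 and 11.25 in control. It fell by 0.41 ± 0.089 (limma adjusted p = 0.0306), a call that was kept only without control array 1 (up to 0.11 on leaving out another). Mgst1, an enzyme of the endoplasmic reticulum and the outer mitochondrial membrane, read 10.1, 11.32 and 10.41 in cKO and 11.08, 11.25 and 11.37 in control. Its change was -0.62 ± 0.30 (limma adjusted p = 0.256), and -0.98 without cKO array 2 (limma adjusted p = 0.00759). Mgst2, which can make leukotriene C4, had a change of -0.05. Over all 22 glutathione S-transferases, 1 rose and 8 fell, and the lower count was 4 without control array 2 or control array 3.

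Ugt2a3 carried the largest change among the UDP-glucuronosyltransferases. Its human counterpart glucuronidates bile acids. It read 5.62, 6.51 and 6.16 in cKO, within the range of the olfactory receptor genes, and 9.19, 9.21 and 9.34 in control. The means were 6.10 ± 0.45 in cKO and 9.25 ± 0.081 in control (SD, n = 3 each), and the level fell by 3.15 ± 0.22, a fold of 8.88 (limma adjusted p = 0.000507). A fold against so low a level can be understated. The call was kept with any 1 array left out.

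Ugt2b36 rose. It read 9.71, 9.81 and 9.98 in cKO and 8.41, 8.39 and 8.38 in control, one of the tightest separations among the 46 genes. The change was 1.44 ± 0.089, a fold of 2.71 (limma adjusted p = 0.000352), kept with any 1 array left out. Ugt2b34 read 12.36, 12.32 and 12.38 in cKO and 12.05, 11.98 and 12.09 in control. It was 0.31 ± 0.069 higher (limma adjusted p = 0.0322), but the adjusted p was 0.0619 to 0.117 on leaving out any array. The other 5 Ugt2b genes did not pass. Their changes were -0.17 for Ugt2b5, -0.15 for Ugt2b35, -0.07 for Ugt2b37, -0.16 for Ugt2b38 and 0.36 for Ugt2b1. Of the 8 genes, 2 were called higher, or 1 on leaving out any array, and 1 lower, and their median change was -0.11.

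The Ugt1a locus, which holds the enzyme for bilirubin, makes its enzymes from alternative first exons spliced to shared exons. Its 8 symbols share 1 probe set, which the choice of genes leaves out. That probe set read 10.69, 10.78 and 10.81 in cKO, below the 11.4, 11.47 and 11.49 in control. The change was -0.69 ± 0.073 (limma adjusted p over all probe sets = 0.00654). The change was -0.685 without cKO array 2 and control array 3, with a limma adjusted p of 0.0915 on fewer arrays. This probe set cannot tell one Ugt1a enzyme from another. Of 10 probe sets with several symbols of the 3 classes, it alone passed.

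On chromosome 5 the Ugt2 genes and 3 Sult1 genes form 1 run of 11. Within it 2 genes were called higher and 3 lower, and the 6 measured flanking genes did not pass (limma adjusted p = 0.264 to 0.823). Genes that passed stood beside genes that did not: Ugt2b5, beside Ugt2b36, had a change of -0.17 with a 95% interval of -0.38 to 0.04, and Ugt2b38, beside Ugt2a3, changed by -0.16 (limma adjusted p = 0.426).

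Sult6b2 had the largest change of the 46 genes. It read 6.12, 5.68 and 6.24 in cKO, against 9.77, 9.88 and 10.19 in control. The cKO levels lay around the olfactory receptor median, and the control levels far above it. The means were 6.01 ± 0.29 in cKO and 9.95 ± 0.22 in control (SD, n = 3 each), and the level fell by 3.93 ± 0.18, a fold of 15.3 (limma adjusted p = 0.00016). The call was kept with any 1 array left out, and the change was -3.65 without cKO array 2 and control array 3. Of 6 measured genes around it on chromosome 6, Cmas rose by 0.43 and the others did not pass. Sult6b1, a further gene of this family, changed by -0.15 (limma adjusted p = 0.532).

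Sult2b1, which sulfates cholesterol, rose. It read 9.99, 9.36 and 9.44 in cKO and 8.51, 8.12 and 8.18 in control, without overlap. The change was 1.33 ± 0.19, a fold of 2.51 (limma adjusted p = 0.00715), kept with any 1 array left out. The Sult2a genes, whose enzymes sulfate bile acids and hydroxysteroids in liver, were under the olfactory receptor percentile: Sult2a3 read 5.15, 4.78 and 5.01 in cKO and 5.11, 5.6 and 5.12 in control. Changes in Sult2a3, Sult2a6 and Sult2a8 were -0.30, 0.09 and -0.09, and none passed.

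Sult1b1 and Sult1d1, adjacent on chromosome 5, fell by like amounts. Sult1b1 sulfates thyroid hormones and phenols, and it read 11.33, 11.15 and 11.27 in cKO and 11.74, 11.68 and 11.85 in control. It fell by 0.51 ± 0.085 (limma adjusted p = 0.012, and 0.0757 without cKO array 2 and control array 3). Sult1d1, which in mouse sulfates catecholamines, read 11.51, 11.32 and 11.46 in cKO and 11.85, 11.92 and 12.02 in control. It fell by 0.50 ± 0.086 (limma adjusted p = 0.0133, and up to 0.0545 without control array 2 or 3). These are changes of 1.42-fold and 1.41-fold in genes whose levels stayed above 11 on the log2 scale. Sult1a1, the main phenol sulfotransferase of liver, read 7.26, 9.29 and 6.52 in cKO and 6.77, 6.64 and 7.17 in control. Its change was 0.83, with a 95% interval of -0.78 to 2.44, and 0.03 without cKO array 2 (limma adjusted p = 0.961).

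Sult1c2 was above its controls on every cKO array, at 6.48, 6.9 and 7.26 against 6.15, 6.27 and 5.95, all under the olfactory receptor percentile. The change of 0.76 ± 0.20 missed the threshold (limma adjusted p = 0.0599). Sult1e1, the estrogen sulfotransferase, and Sult3a1 lay far under that percentile, and Sult3a1 read 3.2, 4.64 and 3.32 in cKO and 3.94, 2.78 and 3.84 in control. Groups overlapped at these low levels, with a change of 0.20 (limma adjusted p = 0.835). Sult4a1, a gene typical of brain, read 8.17, 8.78 and 8.35 in cKO and 8.12, 8.19 and 8.29 in control, a change of 0.23. Over the 16 sulfotransferases 1 rose and 3 fell. Without control array 2 or control array 3 the lower count was 2, and without cKO array 1 the higher count was 2.

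**Figure D3:**
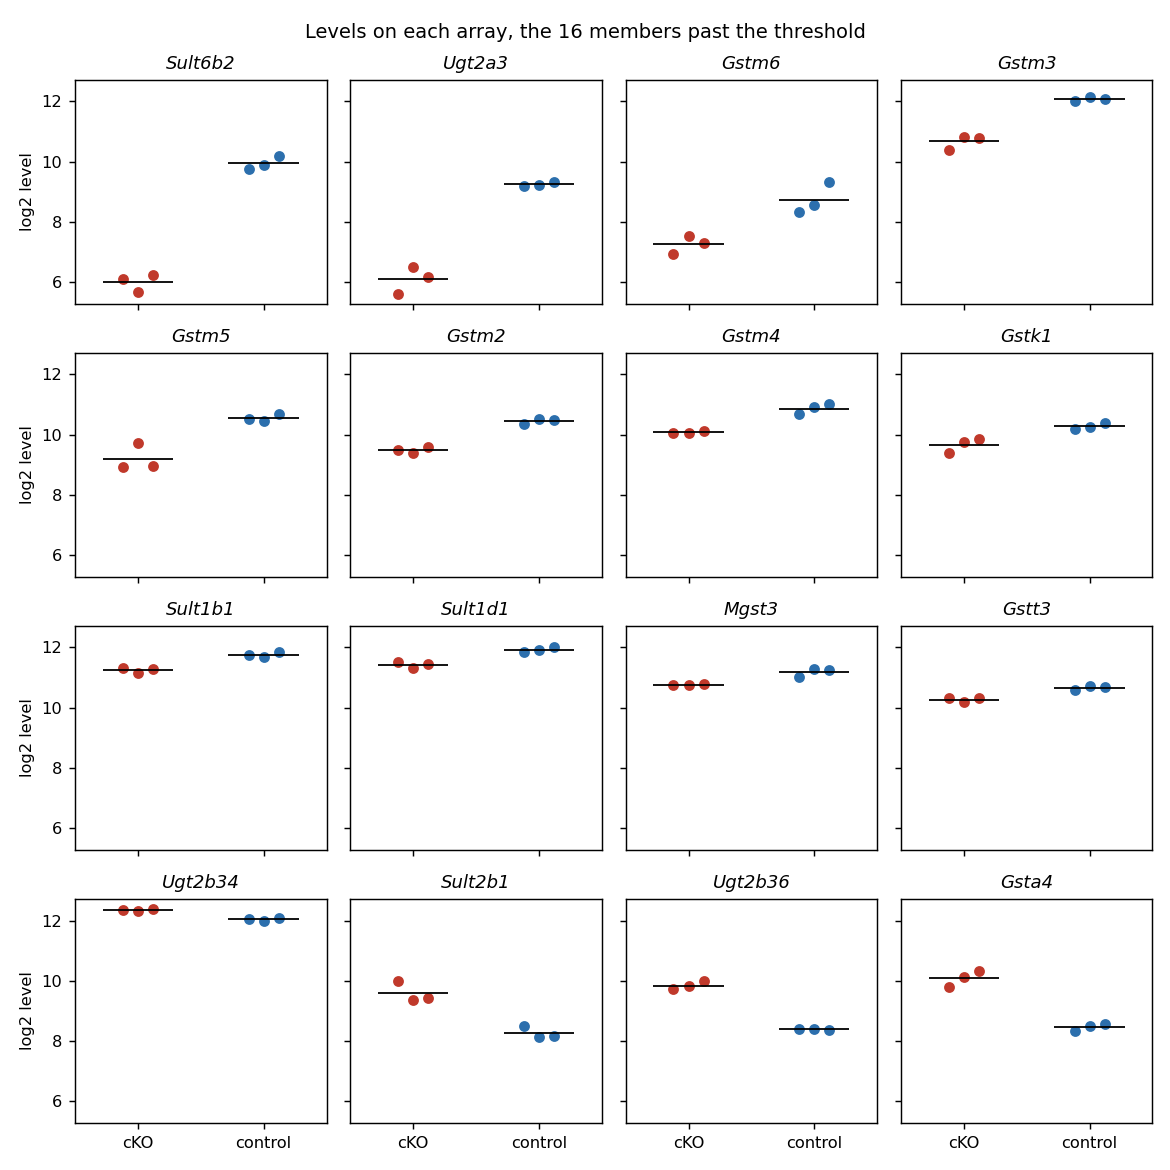
Log2 level on each array (y axis; points, arrays; line, group mean of 3) in cKO, left, and control, right, for the 16 genes past the threshold. Groups do not overlap in any panel, and Sult6b2 and Ugt2a3 drop to about 6 on all 3 cKO arrays.

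Groups did not overlap for 19 of the 46 genes, 41.3%, against 32.6% of all genes. These were the 16 called and Gstm1, Sult1c2 and Ugt2b1.

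Some of the genes were high on the array with the most liver RNA. On cKO array 2, 6 of the 46 genes, 13.0%, lay over 1 log2 unit above the mean of the other cKO arrays, against 3.5% of all genes. They were Gsta3, higher there by 2.86, Gstt1 by 2.79, Sult1a1 by 2.40, Gstp3 by 1.17, Mgst1 by 1.06 and Sult3a1 by 1.38, the last at levels far under the olfactory receptor percentile. Alb, the serum albumin of hepatocytes, read 7.09, 13.66 and 6.96 in cKO and 12.04, 6.56 and 13.19 in control. With all arrays 0 of the 6 passed in limma, or had an unadjusted p under 0.05. Without cKO array 2 and control array 3, Gstp3 changed by -0.96 (limma adjusted p = 0.0103) and Mgst1 by -0.91 (limma adjusted p = 0.0264). Over the 46 genes, 4 passed only without these arrays, the other 2 being Gstm1 and Gstm7. With the hepatocyte marker mean as a covariate, 3 of the 46 were higher and 16 lower, beside 13.5% of all genes called.

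**Figure D4:**
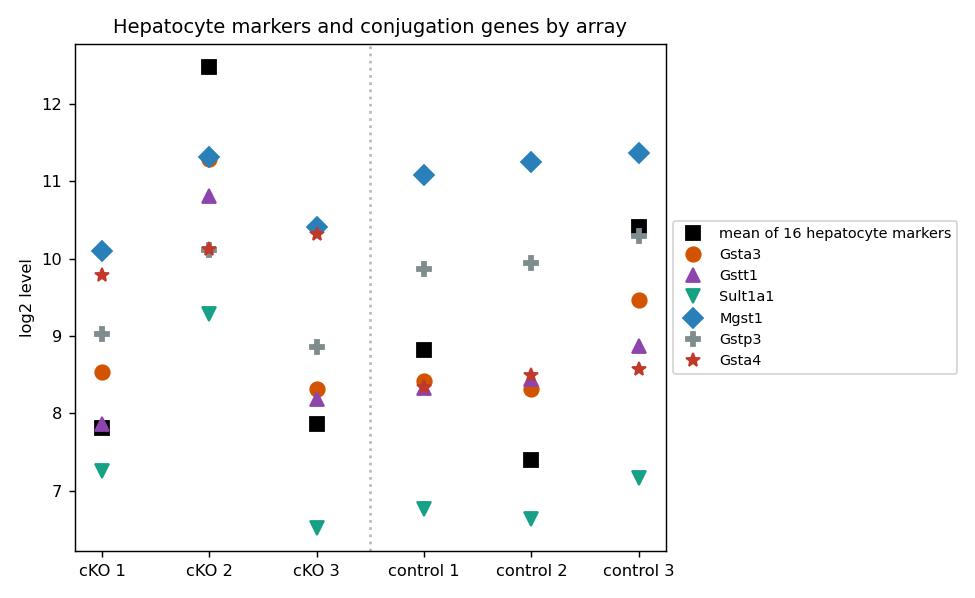
Log2 level on each array (x axis, cKO arrays left of control arrays) of the mean of 16 hepatocyte markers (black squares) and of 6 conjugation genes (coloured symbols). On cKO array 2 the markers average 12.48, and Gsta3, Gstt1 and Sult1a1 stand over 2 log2 units above the other cKO arrays, while Gsta4 does not.

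The genes that supply, use or remove what the 3 classes handle were read from 7 lists. Of 18 measured genes of glutathione synthesis and recycling, 0 rose and 4 fell, with a median change of -0.03. The enzymes that make glutathione did not pass with all arrays. Gclm, the regulatory subunit of glutamate-cysteine ligase, changed by -0.64 (limma adjusted p = 0.0928). It read 10.61, 11.3 and 10.6 in cKO, and its change was -0.87 without cKO array 2 (limma adjusted p = 0.0031). With the hepatocyte covariate it was -0.70 (limma adjusted p = 0.0055). Gclc, the catalytic subunit, changed by 0.16 with all arrays. The peptidase Anpep, which cleaves the cysteinylglycine left when glutathione is broken down, fell by 1.02 ± 0.15 (limma adjusted p = 0.00704). The transporter subunit Slc3a2 fell by 0.63 ± 0.09 and its relative Slc3a1 fell by 0.60 ± 0.09 (limma adjusted p = 0.00677 and 0.00803). Slc7a9, the cystine transporter that pairs with Slc3a1, fell by 0.61 ± 0.12 (limma adjusted p = 0.023), a call kept only without cKO array 1 (up to 0.0847 on leaving out another).

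Of 8 glutathione peroxidases, 3 rose and 1 fell. Gpx2, the peroxidase of gut epithelium, rose by 1.40 ± 0.16, a fold of 2.65 (limma adjusted p = 0.00261). Gpx8, of the endoplasmic reticulum, rose by 1.17 ± 0.09 (limma adjusted p = 0.00085). Both kept their call with any 1 array left out. Gpx1 rose by 0.52 ± 0.11 and Gpx4, which reduces lipid peroxides, fell by 0.54 ± 0.13 (limma adjusted p = 0.0264 and 0.0429). The call of Gpx1 was lost without cKO array 1 or any control array (adjusted p up to 0.0811), and that of Gpx4 was kept only without control array 1 (up to 0.127 on leaving out another). Of 17 NRF2 regulators and targets, 2 rose and 2 fell, and the median was -0.18. The targets moved both ways: Me1, malic enzyme, fell by 1.54 ± 0.11 (limma adjusted p = 0.000601), and Nqo1, a quinone reductase, rose by 0.71 ± 0.10 (limma adjusted p = 0.00746). Ephx1, microsomal epoxide hydrolase, rose by 1.25 ± 0.28 and Cbr1, a carbonyl reductase, fell by 0.51 ± 0.13 (limma adjusted p = 0.0338 and 0.049). The call of Ephx1 was lost without cKO array 3 or any control array (adjusted p up to 0.112), and that of Cbr1 without cKO array 2 or 3 or control array 2 or 3 (up to 0.152). Nfe2l2, which codes for NRF2, changed by -0.30 and did not pass.

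The donors of glucuronic acid and sulfate had few calls that were kept on leaving out an array. Ugdh, which makes UDP-glucuronic acid, changed by -0.23 (limma adjusted p = 0.191). Of the 8 genes of that list 1 rose, Cmas, which in fact activates sialic acid, and 2 fell. Gusb fell by 0.46 ± 0.11 and Slc35b1 fell by 0.48 ± 0.11 (limma adjusted p = 0.0366 and 0.041), and both missed the threshold with any array left out (up to 0.118 and 0.108). Gusb codes for the lysosomal enzyme that removes glucuronic acid. Without cKO array 1, control array 1 or control array 2 no gene of the list passed. Of 11 genes of PAPS and sulfate supply 1 rose and 3 fell. Slc26a3, an anion exchanger of the apical membrane, fell by 0.96 ± 0.13 (limma adjusted p = 0.00521). Papss1, which makes PAPS, fell by 0.52 ± 0.12 (limma adjusted p = 0.0338), a call kept only without control array 1 (up to 0.119 on leaving out another). Papss2, a further PAPS synthase, changed by 0.24 (limma adjusted p = 0.328). The sulfatases Arsb and Arsa, lysosomal enzymes that remove sulfate, changed by 0.52 ± 0.10 and -0.64 ± 0.13 (limma adjusted p = 0.022 and 0.0229, and up to 0.0661 and 0.0871 on leaving out an array). Without cKO array 3, control array 2 or control array 3, only 1 gene of this list passed, lower in cKO.

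Of 11 conjugate export genes, 6 rose and 0 fell, with a median change of 0.54, and the higher count was 4 without control array 3 and 3 without cKO array 2 and control array 3. On leaving out cKO array 2, 6 were higher and 1 lower, Abcc6, which changed by -0.90 there (limma adjusted p = 0.0393) and by -0.69 with all arrays (0.123). Abcb1a, P-glycoprotein of the apical membrane, rose by 1.81 ± 0.12, a fold of 3.5 (limma adjusted p = 0.000438). Abcb1a and Abcb1b, both among the rises, are drug pumps on this list and not pumps particular to conjugates. Abcb1b rose by 0.66 ± 0.14 (limma adjusted p = 0.0286, and up to 0.0893 on leaving out an array). Its mean level of 6.045 lay near the olfactory receptor median of 6.03. Abcc1 and Abcc4, basolateral pumps for conjugates, rose by 0.54 ± 0.08 and 0.66 ± 0.11 (limma adjusted p = 0.00663 and 0.0122). The adjusted p of Abcc4 was 0.0537 without control array 3. Slc51a and Slc51b, the 2 subunits of the basolateral bile acid and steroid sulfate exporter, rose by 0.69 and 0.78. Abcc2, the apical pump for glucuronides and glutathione conjugates, changed by -0.56 and did not pass (limma adjusted p = 0.0603).

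Of 22 measured transcription factors that control such genes, 4 rose and 1 fell. Foxa1, Foxa2 and Foxa3, forkhead factors of gut and liver, rose by 1.58 ± 0.15, 0.89 ± 0.14 and 1.11 ± 0.11 (limma adjusted p = 0.00161, 0.00983 and 0.00175). Pparg, a nuclear receptor for fatty acids, rose by 1.5 ± 0.15 (limma adjusted p = 0.00163). These 4 rises were kept with any 1 array left out. Hnf4g, a nuclear receptor of enterocytes, fell by 0.45 ± 0.10 (limma adjusted p = 0.0314), a call kept only without cKO array 1 (up to 0.109 on leaving out another). Hnf4a changed by 0.01, and Nr1i2, the pregnane X receptor, by -0.29 (limma adjusted p = 0.0751).

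**Figure D5:**
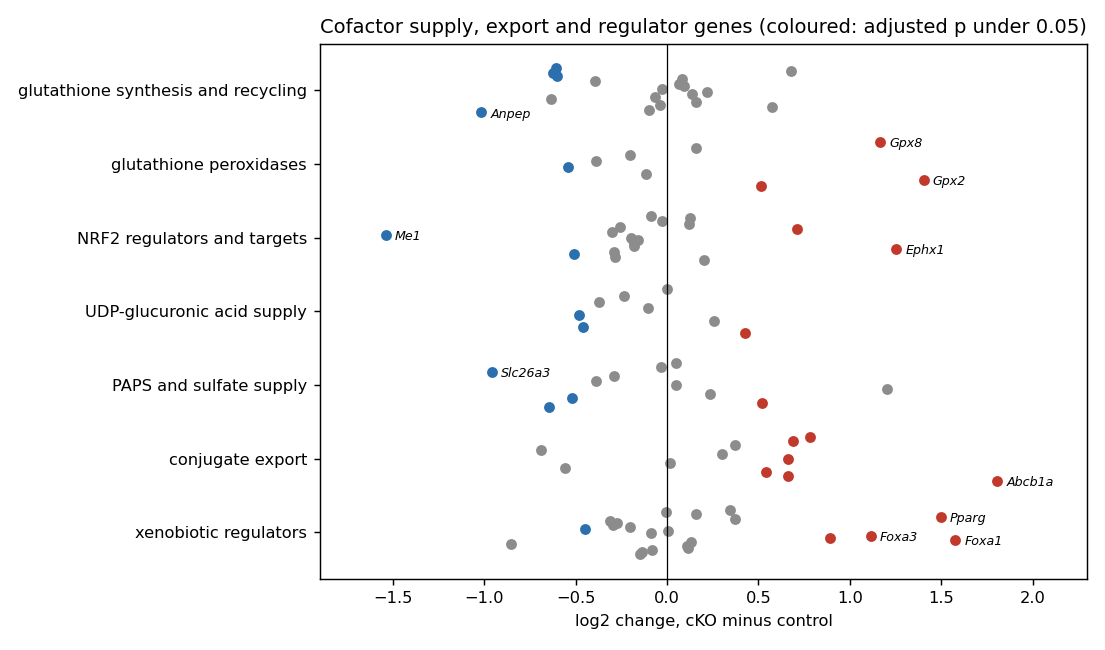
Change of each measured gene, cKO minus control, on the log2 scale (x axis), for 7 lists of cofactor supply, export and regulator genes, 1 row a list. Points are limma estimates from 3 arrays each, coloured where they passed, and the list named conjugate export holds 6 rises, the drug pumps Abcb1a and Abcb1b among them, and 0 falls.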

How the data were processed

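Per the labels, RNA was prepared with Qiagen RNeasy columns and biotin-labelled. The deposited log2 levels, 1 per probe set and array for 35512 probe sets, were made by the authors with dChip, per the series text. For dChip, the version, background correction, normalization and log base were not given in the sources used here. A log2 scale was read from the values, 0 to 14.25, with array medians of 7.73 to 7.84. No 2 arrays held the same values. Precision is limited by the number of arrays.

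Platform annotation gave 21789 probe sets 1 gene, 1621 several and 12102 none. Of several probe sets of a gene, the one with the highest mean was kept. A probe set cannot separate near-identical copies. Levels were compared with limma 3.58.1 in R 4.3.3 (lmFit and eBayes, two-sided, no covariate) and adjusted by Benjamini-Hochberg over 19938 genes at a threshold of 0.05. Probe sets with several symbols were fitted over all 35512. Folds are 2 raised to the log2 change. Promoters were searched with Python 3.11.15 and aligned with Biopython 1.88. The limma fit was also run on simulated data with independent noise for each gene. Such data lack differences shared across an array, so that run cannot measure false calls in the deposited data.

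The genes, lists and tests were chosen with earlier results of these data known. Named are all conjugation genes that passed, the gene with the highest level and the most changed of each family, and up to 5 passing genes of each list, with other members added after their values were seen. Alternatives were quantile normalization, centring, a constant of 32 added to levels, filters on dim genes, trended, weighted and blocked fits, a hepatocyte covariate and left-out arrays.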

Additional observations from a re-analysis of the deposited data

How the results depend on the processing

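Leaving out 1 array gave 3 to 4 of the 46 conjugation genes higher and 7 to 14 lower, and 19 to 28 with groups that do not overlap. Over all genes it gave 629 to 959 higher and 844 to 1322 lower, against 1101 and 1479 with all arrays. Without cKO array 2 and control array 3, 708 genes were higher and 878 lower, and 29 of the 46 did not overlap, with fewer samples fitted. Counts of groups that do not overlap cannot fall when arrays are left out. The share of all genes is not given beside them here, so they say nothing particular of the 46. The main fit used no pairing by array number. A pairing was looked for in the deviation of each array from its group mean, gene by gene. These deviations, not the levels, correlated at -0.02, -0.42 and -0.18 between same-numbered arrays. By them, 0 cKO arrays correlated best with their own number. With 3 arrays a group, and cKO array 2 and control array 3 apart in hepatocyte markers, such correlations cannot exclude a pairing. The fit with a replicate block gave 622 higher and 827 lower genes, and 3 and 9 of the 46. Centring each array on its median gave 3 and 13 of the 46. Single changes are those of the 46 genes and of the list genes given by value. Those that turned in sign did not pass in either fit, with a limma adjusted p above 0.05 in both, and the cause was not tested. Without cKO array 2 and control array 3 they were Gsto1 at 0.015, Gstt1 at -0.365, Gstz1 at -0.035, Sult3a1 at -0.10, Sult5a1 at -0.025, Ugt2b37 at 0.11 and Gclc at -0.05. After centring, Gstz1 was at -0.0133 and Hnf4a at -0.0467. With array weights, Gstz1 was at -0.0534 and Gstt4 at -0.0296, and with the hepatocyte covariate Gstz1 was at -0.0150. With 1 array left out, the changes ran from -0.31 to 1.18 for Gsta3, -0.53 to 0.95 for Gstt1, -0.065 to 0.185 for Gstt4, -0.15 to 0.15 for Gstz1, -0.15 to 0.025 for Ugt2b37, -0.312 to 0.00833 for Sult1c1, -0.26 to 0.46 for Sult3a1, -0.47 to 0.14 for Sult3a2, -0.0817 to 0.313 for Gclc and -0.0233 to 0.0267 for Hnf4a. Of 516 left-out values of single genes, 412 kept direction and side of the threshold, 81 lost the threshold, 7 gained it and 16 turned. Of 911 under the other alternatives these numbers were 819, 53, 27 and 12. The number of arrays, 3 a group, limits the precision, and without detection calls no level could be set against background.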
